A study of Mus musculus with 30 samples.

Results

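The 10 genes described here set or read the pace at which a cell leaves G1, the phase before DNA synthesis. They are the D cyclins Ccnd1, Ccnd2 and Ccnd3, the inhibitors of cyclin-dependent kinases (CDKs) Cdkn1a, Cdkn1b, Cdkn2c and Cdkn2d, the retinoblastoma gene Rb1, and the transcription factor genes Myc and Mycl. They were taken by symbol, and all 10 were found once among the 43629 Ensembl gene identifiers counted in every library. The RNA came from bone marrow derived macrophages of C57BL/6 mice, and each of the 10 groups had 3 libraries, 30 in all. Every group was grown to day 7 in CSF-1 at 20 ng/mL, the growth factor on which these macrophages depend, and CSF-1 was also in the medium during stimulation. Of the wild type groups, 1 had no stimulus and 3 had IL-4 at 20 ng/mL, alone or together with PGE2 (10 µM) or valinomycin (10 nM). IL-4 is the cytokine of alternative activation. PGE2 is a prostaglandin whose receptors on macrophages signal by way of cyclic AMP. Valinomycin carries potassium across membranes and so depolarises mitochondria. In a separate experiment, cells exposed to lentivirus carried a control shRNA or an shRNA against Etv1, an ETS family transcription factor, and were left without stimulus or received IL-4 or IL-4 with PGE2. The labels give no stimulation time and no hairpin sequences, and they do not say how many Etv1 hairpins were used. Whether the 3 replicates of a group are separate mice or cultures is not stated either, so the p-values capture the spread among these libraries only, which may be technical.

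D cyclins rise on mitogen signals, bind CDK4 and CDK6, and start the phosphorylation of the retinoblastoma protein, which then releases E2F factors to switch on the genes of DNA synthesis. The proteins p21 (Cdkn1a) and p27 (Cdkn1b) bind cyclin and CDK complexes, whereas p18 (Cdkn2c) and p19 (Cdkn2d) bind CDK4 and CDK6 directly. MYC, paired with MAX, drives genes of ribosome assembly and nucleotide synthesis. In bone marrow derived macrophages, CSF-1 is the mitogen that keeps Ccnd1 and Myc expressed, IL-4 is known to raise p21, and cyclic AMP is known to slow growth and to raise p27.

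Wild type libraries held 10514496 to 13414293 counts and shRNA libraries 6924973 to 30473040, the deepest being replicate 3 of control shRNA with IL-4 and PGE2. Levels are given as CPM, a gene's counts in a library scaled to 1000000 within its experiment, by library or as mean ± SD over 3 libraries, and they are not tested between the experiments. The targeted gene Etv1 stood at 10.6, 13.9 and 28 CPM in control shRNA cells without stimulus, with IL-4 and with IL-4 and PGE2, and at 3.44, 5.33 and 8.89 CPM in the matching Etv1 shRNA cells. All 8 macrophage markers were detected in every group. Their summed level was 14362 to 19083 CPM over the wild type libraries and 15895 to 21465 CPM over the control shRNA libraries, but 8902 to 10386 CPM over the Etv1 shRNA libraries. Of the 8, 6 were lower and 1 higher with the Etv1 shRNA without stimulus and with IL-4, and 5 lower and 1 higher with IL-4 and PGE2. This difference accompanies every comparison between hairpins below, and its part in them was not tested. Summed neutrophil markers were 212 to 342 CPM in wild type and at most 2.46 CPM in shRNA libraries. Those of lymphocytes, dendritic, stromal, erythroid and megakaryocyte, and mast and basophil cells reached at most 1.92, 5.23, 8.21, 4.63 and 1.80 CPM in any library.

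The stretch just before an annotated start of transcription is shown for 3 of the members, Cdkn1b, Cdkn1a and Ccnd3. In each experiment Cdkn1b rose with PGE2, Cdkn1a rose with IL-4 and the D cyclin Ccnd3 fell with PGE2. Only these 3 had a window that lay wholly or almost wholly outside the annotated gene. For Cdkn1a and Ccnd3 it is the window of the more upstream RefSeq start. There was no window for Ccnd1, Ccnd2, Myc and Rb1. The bases are those of RefSeq on GRCm38.p6 and are written 5′ to 3′ on the coding strand. Capitals mark matches to a motif: CCAAT boxes in Cdkn1b, single units of the p53 consensus in Cdkn1a, and the short form TGACG of the cyclic AMP response element in Ccnd3.
Cdkn1b, chr6:134920151-134920400, plus strand: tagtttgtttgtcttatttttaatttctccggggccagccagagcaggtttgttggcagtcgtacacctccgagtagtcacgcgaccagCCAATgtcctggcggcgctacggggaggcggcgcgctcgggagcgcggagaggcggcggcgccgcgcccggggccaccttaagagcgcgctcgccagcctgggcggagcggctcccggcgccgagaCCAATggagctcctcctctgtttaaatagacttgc
Cdkn1a, chr17:29090729-29090975, plus strand: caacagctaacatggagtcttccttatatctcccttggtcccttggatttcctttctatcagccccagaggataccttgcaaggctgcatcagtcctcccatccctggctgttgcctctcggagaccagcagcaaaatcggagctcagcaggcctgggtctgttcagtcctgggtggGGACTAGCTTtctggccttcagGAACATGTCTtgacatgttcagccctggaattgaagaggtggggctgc
Ccnd3, chr17:47504801-47505050, plus strand: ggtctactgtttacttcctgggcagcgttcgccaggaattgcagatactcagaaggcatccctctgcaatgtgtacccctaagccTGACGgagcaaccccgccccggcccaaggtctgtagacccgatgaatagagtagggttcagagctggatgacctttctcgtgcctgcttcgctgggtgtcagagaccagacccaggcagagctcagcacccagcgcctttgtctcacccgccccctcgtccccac
The CCAAT boxes lay 161 and 35 bases before the start of Cdkn1b. The p53 units lay 73 and 51 bases before the upstream RefSeq start of Cdkn1a, and the short element 165 bases before that of Ccnd3. Both strands were searched, and among 32851 RefSeq windows of the same length 33.8% held CCAAT, 7.13% a p53 unit and 17.8% TGACG. The full element TGACGTCA, which contains the short one, was in 1.55% of windows, and none of these 3 windows held it. None held the STAT6-type site, TTC and GAA with 4 bases between them (5.85% of windows), the MYC and MAX box CACGTG (6.02%) or the E2F-type site TTTCGCGC (0.256%) either. RefSeq also has a start further downstream, inside the annotated gene, for Cdkn1a at 29093769 and for Ccnd3 at 47593467. The window of the former held none of the motifs, and that of the latter held TGACG 28 and CCAAT 108 bases before the start. Which start the counted transcripts used was not tested. Of the windows not shown, that of Cdkn2d held a p53 unit 102 and CCAAT 220 bases before its start. Only 52 of its bases lay outside the annotated gene, and the p53 unit was not among them. The Mycl window lay wholly inside the annotated gene and held a p53 unit 69 bases before its start. The bases after that Mycl start were not found in an annotated transcript. By letters alone, the p53 unit was thus not particular to Cdkn1a. These matches are descriptions of letters, not of bound sites.

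How many members changed was read against all genes. The threshold for a call was 0.05 for the p of edgeR's quasi-likelihood test after Benjamini-Hochberg adjustment over all tested genes, and Mycl was too low to be tested in wild type cells. With IL-4, 2 members rose and 5 fell of the 9 tested in wild type cells, where 46.4% of all genes were called, 24% as higher and 22.4% as lower. PGE2 added to IL-4 raised 5 and lowered 3 of 9 (59.4% of all genes called, 29.9% higher and 29.5% lower). Valinomycin added to IL-4 raised 2 and lowered 5 of 9 (38.4%, 19.4% higher and 18.9% lower). Between PGE2 and valinomycin, 4 members were higher and 1 lower with PGE2 of 9 (63.2%, 31.7% and 31.5%). In control shRNA cells IL-4 raised 2 and lowered 5 of 10 (34.3%, 17.2% and 17.1%), and PGE2 raised 2 and lowered 5 of 10 (59.4%, 29.3% and 30.1%). In Etv1 shRNA cells IL-4 raised 1 and lowered 1 of 10 (18%, 10.9% and 7.16%), and PGE2 raised 4 and lowered 5 of 10 (47.5%, 24.6% and 22.8%). With the replicate number as a block within each hairpin, 5 members were called for IL-4 in Etv1 shRNA cells, 4 higher and 1 lower. That block called 1786 genes as higher and 1368 as lower among the 12382 tested. Between hairpins, 2 of 10 were higher and 4 lower with the Etv1 shRNA without stimulus (51.7%, 24.9% and 26.8%). With IL-4 they were 3 and 5 (51%, 25.4% and 25.6%), and with IL-4 and PGE2 4 and 3 (54.3%, 27.6% and 26.7%). So many genes changed in most comparisons that a call alone says little about these members, and the sizes and directions are given below.

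**Figure D1:**
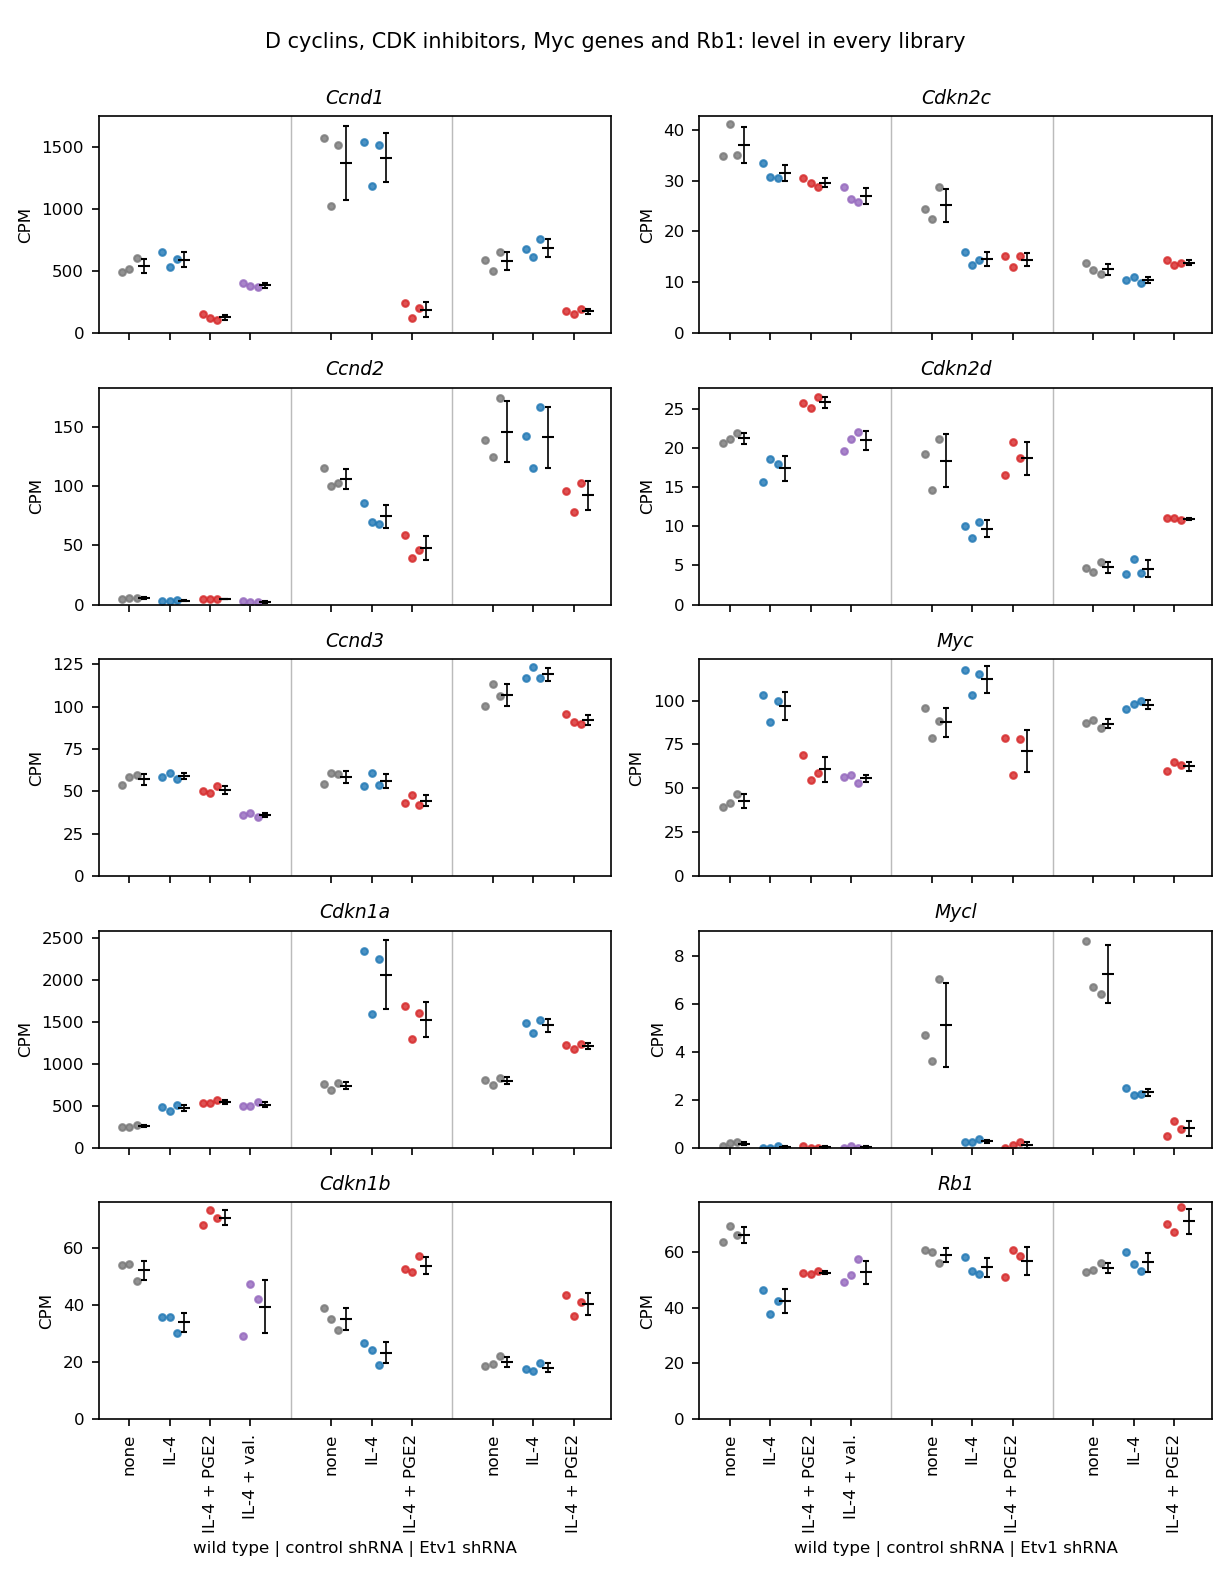
Level of each of the 10 genes in every library (y axis, CPM, from 0), with 3 dots a group, the mean ± SD beside them, and wild type, control shRNA and Etv1 shRNA cells from left to right. Ccnd1 is lowest in the 3 groups with PGE2, Cdkn1b is highest there within each of the 3 cell sets, and Mycl falls with IL-4 in both hairpin sets.

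Cyclin D1 was the D cyclin that PGE2 lowered most. Ccnd1 (ENSMUSG00000070348, chromosome 7, 144929931 to 144939925, minus strand) was at 494, 519.7 and 601 CPM in the unstimulated wild type libraries and at 651, 532 and 594 CPM with IL-4. With PGE2 added it was at 149.6, 123 and 109 CPM, and with valinomycin added at 406, 378 and 369 CPM. The unstimulated and IL-4 libraries overlapped, the valinomycin libraries lay below both, and the PGE2 libraries lay far below all others. PGE2 changed Ccnd1 by a log2 fold change of -2.22 ± 0.13 (SE), to 0.215 of the IL-4 level (edgeR adjusted p = 1.23e-07). Valinomycin changed it by -0.62 ± 0.12 (edgeR adjusted p = 0.0022), and the 2 agents differed by -1.59 ± 0.13 (edgeR adjusted p = 1.44e-06). The IL-4 effect was 0.14 with a 95% interval from -0.09 to 0.37 (edgeR adjusted p = 0.375). Fewer cells with a transcript and less transcript per cell cannot be told apart in such bulk RNA.

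The fall of Ccnd1 with PGE2 was also seen in both hairpin groups. Control shRNA libraries held 1573, 1026 and 1514 CPM without stimulus, 1539, 1183 and 1518 CPM with IL-4, and 245, 124 and 200.2 CPM with IL-4 and PGE2. Etv1 shRNA libraries held 587, 503 and 654 CPM, 677, 615 and 760.0 CPM, and 176, 154 and 197 CPM in the same order. The PGE2 libraries lay below every other library of their hairpin, and replicate 2 was the lowest of its control shRNA group each time. PGE2 changed Ccnd1 by -2.90 ± 0.24 on the log2 scale with the control shRNA (edgeR adjusted p = 2.1e-07; -3.10 to -2.67 when any 1 library was left out) and by -1.96 ± 0.23 with the Etv1 shRNA (edgeR adjusted p = 1.27e-05). The difference between these 2 effects, 0.94 ± 0.32, did not pass the adjusted test over all genes in edgeR (adjusted p = 0.0793). It passed without replicate 1 of control shRNA with IL-4 and PGE2 (1.13, adjusted p = 0.0338), in DESeq2 (0.92, adjusted p = 0.0302) and with the replicate number as a block within each hairpin (0.97, adjusted p = 3.48e-06). With that block the IL-4 value in Etv1 shRNA cells was called as well (0.24, adjusted p = 0.0177).

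Between hairpins the gap in Ccnd1 was present before PGE2 and not detected after it. Ccnd1 was lower with the Etv1 shRNA, with a log2 difference of -1.24 ± 0.23 without stimulus (edgeR adjusted p = 0.00046) and of -1.05 ± 0.22 with IL-4 (edgeR adjusted p = 0.0016), with no overlap of the libraries. Under IL-4 with PGE2 the difference was -0.11, with an interval from -0.56 to 0.34, and the libraries overlapped. The order of group means in the shRNA experiment was control shRNA with IL-4 and without stimulus, whose libraries overlapped, then Etv1 shRNA with IL-4 and without stimulus, which overlapped too, and then both PGE2 groups, which overlapped as well. The gene LTO1 overlaps Ccnd1 on the opposite strand, and since the sources used here do not give the strand setting of the counting, reads of the 2 genes may be mixed.

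Cyclin D2 was a minor transcript in the wild type experiment. Ccnd2 (ENSMUSG00000000184, chromosome 6, 127125162 to 127152193, minus strand) was at 4.77, 5.96 and 5.87 CPM without stimulus, 3.23, 3.35 and 3.59 CPM with IL-4, 4.83, 4.55 and 4.28 CPM with PGE2 added, and 2.68, 1.80 and 2.00 CPM with valinomycin added. The 3 libraries of each group summed to 200, 125, 160 and 81 counts, and an antisense gene, 9330179D12Rik, overlaps Ccnd2 and had 68 counts over all libraries. IL-4 changed Ccnd2 by -0.70 ± 0.16 on the log2 scale (edgeR adjusted p = 0.00111). PGE2 added 0.43 ± 0.17 (edgeR adjusted p = 0.0358) and valinomycin -0.64 ± 0.20 (edgeR adjusted p = 0.0125), so the 2 agents moved this low transcript in opposite directions and differed by 1.07 ± 0.19 (edgeR adjusted p = 2.87e-05). The rise with PGE2 was lost in DESeq2 (adjusted p = 0.116) and without any 1 of 4 libraries, replicates 1 and 2 of either IL-4 or IL-4 with PGE2 (0.38 to 0.43, edgeR adjusted p = 0.0681 to 0.109). The fall with valinomycin was lost without replicate 2 (-0.51, adjusted p = 0.071) or replicate 3 (-0.57, adjusted p = 0.0515) of IL-4 with valinomycin.

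In the shRNA experiment Ccnd2 was measured well above that range and PGE2 lowered it. Control shRNA libraries held 116, 99.9 and 103 CPM, then 85.4, 69.7 and 68.4 CPM with IL-4, then 58.4, 38.9 and 46.4 CPM with IL-4 and PGE2. Etv1 shRNA libraries held 139, 125 and 175 CPM, then 143, 115 and 167 CPM, then 96.1, 78.6 and 102 CPM. With the control shRNA the 3 groups stepped down without overlap, and with the Etv1 shRNA only the PGE2 group stood apart. PGE2 changed Ccnd2 by -0.65 ± 0.18 with the control shRNA (edgeR adjusted p = 0.0069) and by -0.61 ± 0.17 with the Etv1 shRNA (edgeR adjusted p = 0.00913). Ccnd2 was higher with the Etv1 shRNA by 0.92 ± 0.17 under IL-4 (edgeR adjusted p = 0.000552) and by 0.95 ± 0.18 under IL-4 with PGE2 (edgeR adjusted p = 0.00046). The smaller difference without stimulus, 0.46 ± 0.17 (edgeR adjusted p = 0.0352), was lost without replicate 1 or 3 of the Etv1 shRNA or replicate 2 or 3 of the control shRNA (0.31 to 0.50, adjusted p = 0.0525 to 0.166). The fall with IL-4 in control shRNA cells, -0.51 ± 0.17 (edgeR adjusted p = 0.0364), was lost without any 1 of 5 of the 6 libraries, all but replicate 1 of IL-4 (-0.55 to -0.44, adjusted p = 0.0553 to 0.123). The difference of the IL-4 effects between hairpins, 0.46 ± 0.24, did not pass (edgeR adjusted p = 0.401), but did with the replicate number as a block within each hairpin (0.46, adjusted p = 0.000268).

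Cyclin D3 was the D cyclin that valinomycin lowered with the smallest error. Ccnd3 (ENSMUSG00000034165, chromosome 17, 47505051 to 47599691, plus strand) was at 53.6, 58.5 and 59.4 CPM without stimulus, 58.4, 61.0 and 57.5 CPM with IL-4, 50.0, 49.2 and 53.3 CPM with PGE2 added, and 36, 37.0 and 35.0 CPM with valinomycin added. The valinomycin libraries lay below all others. Valinomycin changed Ccnd3 by -0.71 ± 0.06 (edgeR adjusted p = 2.56e-09) and PGE2 by -0.22 ± 0.06 (edgeR adjusted p = 0.00302), a difference of 0.50 ± 0.06 between the agents (edgeR adjusted p = 2.35e-07). Thus the order of the agents was the reverse of that for Ccnd1. In shRNA cells PGE2 changed Ccnd3 by -0.33 ± 0.07 (control, edgeR adjusted p = 0.000395) and -0.37 ± 0.07 (Etv1, edgeR adjusted p = 0.000108). IL-4 in Etv1 shRNA cells was called with the replicate number as a block (0.15, adjusted p = 0.0272) and not without it. Its level with the Etv1 shRNA was 89.8 to 124 CPM over 9 libraries against 42.2 to 61.1 CPM over the 9 control shRNA libraries, with no overlap. That is 0.87 ± 0.07, 1.09 ± 0.07 and 1.05 ± 0.07 higher on the log2 scale without stimulus, with IL-4 and with IL-4 and PGE2 (largest edgeR adjusted p = 2.75e-09). Bysl overlaps Ccnd3 on the opposite strand, with the same uncertainty as for Ccnd1.

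Per kilobase of exon, at which the 3 genes can be set beside each other, Ccnd1 made up most of the D cyclin transcript in every group. In wild type cells its share was 94.2% without stimulus, 94.7% with IL-4, 81.1% with PGE2 added and 95% with valinomycin added. With PGE2 the share was 77.9% to 83.6% over the libraries, below the 93.9% to 95.2% with IL-4, and that of Ccnd3 rose from 5.06% to 17.4%. The summed D cyclin level fell from 133 to 33.3 CPM per kilobase with PGE2 and to 86.0 with valinomycin. With the control shRNA the share of Ccnd1 went from 95.5% to 79.8% and with the Etv1 shRNA from 83.5% to 64.8% on addition of PGE2. The sum went from 314 to 50.4 and from 174 to 57.6 CPM per kilobase, so the hairpin groups, which differed in D cyclin sum under IL-4, were close to each other under PGE2. These shares are descriptions without a test, and with the longest transcript of each gene as its length the Ccnd1 share ran from 55% to 93.5%.

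**Figure D2:**
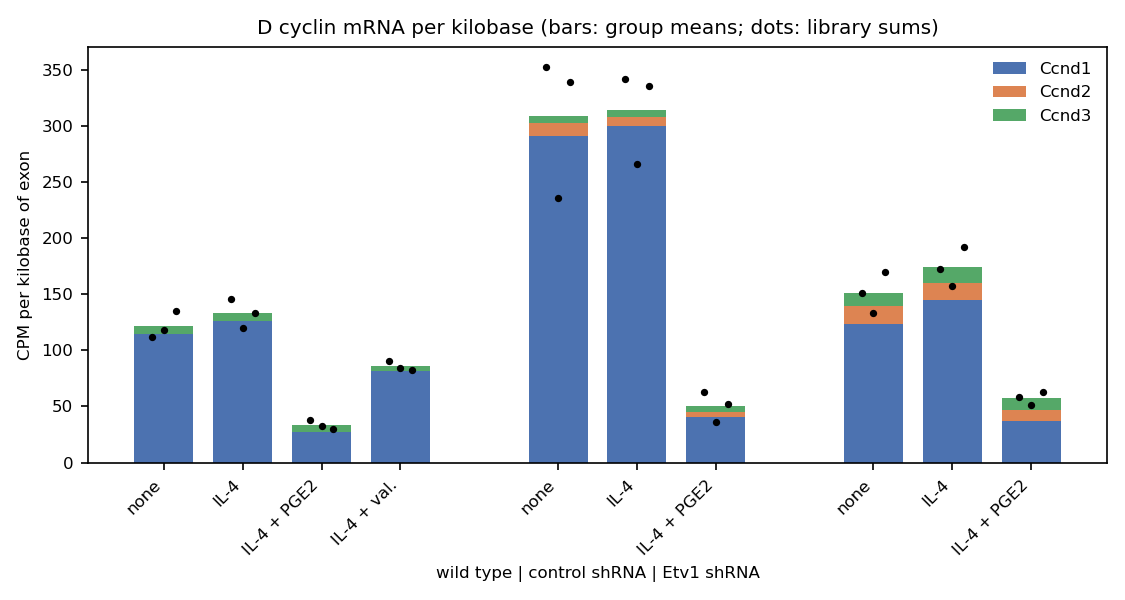
D cyclin transcript per kilobase of exon in the 10 groups (y axis, CPM per kilobase, from 0). Bars stack the group means of Ccnd1, Ccnd2 and Ccnd3 and dots are the sums in single libraries; the sum falls from 133 to 33.3 in wild type, from 314 to 50.4 in control shRNA and from 174 to 57.6 in Etv1 shRNA cells when PGE2 is added to IL-4.

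Among the CDK inhibitors, Cdkn1a rose with IL-4 in every cell set. Cdkn1a (ENSMUSG00000023067, chromosome 17, 29090976 to 29100727, plus strand) was at 249, 249 and 269 CPM in unstimulated wild type libraries. The window printed above is that of its upstream start. With IL-4 Cdkn1a was at 481, 433 and 503 CPM. It was at 538, 530.1 and 573 CPM with PGE2 added and at 492, 496 and 547 CPM with valinomycin added. All stimulated libraries lay above the unstimulated ones. IL-4 raised it by 0.89 ± 0.06 on the log2 scale, 1.85-fold (edgeR adjusted p = 3.56e-12), and PGE2 by a further 0.21 ± 0.05 (edgeR adjusted p = 0.00209). The valinomycin effect of 0.11 ± 0.05 was not called (edgeR adjusted p = 0.109). It passed without replicate 3 of IL-4 (0.16, adjusted p = 0.0437) or replicate 1 of IL-4 with valinomycin (0.15, adjusted p = 0.0484). The agents were 0.10 apart, with an interval from -0.01 to 0.20, which passed without replicate 3 of IL-4 with valinomycin (0.14, adjusted p = 0.0353).

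In control shRNA cells, unlike wild type cells, Cdkn1a was lower with PGE2 than with IL-4 alone. Control shRNA libraries held 754, 690.1 and 767 CPM, then 2351, 1592 and 2256 CPM with IL-4, then 1689, 1292 and 1608 CPM with IL-4 and PGE2. Etv1 shRNA libraries held 809.7, 753 and 836 CPM, then 1485, 1371 and 1519.7 CPM, then 1228, 1176 and 1235 CPM. IL-4 libraries were far above unstimulated ones with either hairpin, and in control cells the libraries with and without PGE2 overlapped. IL-4 raised Cdkn1a by 1.49 ± 0.12 with the control shRNA (2.80-fold, edgeR adjusted p = 5.07e-08) and by 0.87 ± 0.12 with the Etv1 shRNA (1.82-fold, edgeR adjusted p = 5.68e-05). PGE2 changed it by -0.43 ± 0.12 with the control shRNA (edgeR adjusted p = 0.00473, and 0.0606 when only those 2 groups were fitted). With the Etv1 shRNA the PGE2 value was -0.27 ± 0.12 (edgeR adjusted p = 0.0758, 0.000444 when only those 2 groups were fitted, and 0.000248 with the replicate number as a block within each hairpin).

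Between hairpins Cdkn1a was 0.12 apart without stimulus (interval -0.11 to 0.35, edgeR adjusted p = 0.431) and lower with the Etv1 shRNA, with a log2 difference of -0.50 ± 0.12 under IL-4 (edgeR adjusted p = 0.00206). The difference of the IL-4 effects was -0.62 ± 0.17 (edgeR adjusted p = 0.0454), in a comparison where 1 of 10 members was higher and 1 lower and 4.51% of all genes were called, 2.71% higher and 1.81% lower. It held without replicate 2 of control shRNA with IL-4, at -0.78, but not when any 1 of the other 11 libraries was left out (-0.66 to -0.55, adjusted p = 0.0589 to 0.123). Under IL-4 with PGE2 the hairpin difference was -0.33 ± 0.12 (edgeR adjusted p = 0.0245). That call was lost without replicate 1 or 2 of the Etv1 shRNA or replicate 1 or 3 of the control shRNA (-0.34 to -0.28, adjusted p = 0.0521 to 0.0872), and with library totals as the only scaling (-0.18, adjusted p = 0.228).

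Cdkn1b, which encodes p27, fell with IL-4 and rose with PGE2. Cdkn1b (ENSMUSG00000003031, chromosome 6, 134920401 to 134925513, plus strand) was at 54.1, 54.4 and 48.5 CPM without stimulus, 35.9, 36 and 30.2 CPM with IL-4, 68.1, 73.4 and 70.8 CPM with PGE2 added, and 29.1, 47.3 and 42.1 CPM with valinomycin added. The PGE2 libraries were above all others, and replicate 1 of IL-4 with valinomycin lay below the other 2 of its group. IL-4 changed Cdkn1b by -0.62 ± 0.14 (edgeR adjusted p = 0.00425) and PGE2 by 1.06 ± 0.14, a 2.08-fold rise (edgeR adjusted p = 5.05e-05). The valinomycin value of 0.21 ± 0.15 was not called (edgeR adjusted p = 0.298), and without replicate 1 it was 0.41 (adjusted p = 0.000438). PGE2 exceeded valinomycin by 0.85 ± 0.14 (edgeR adjusted p = 0.000224).

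PGE2 raised Cdkn1b with both hairpins as well. Control shRNA libraries went from 26.6, 24.4 and 19.2 CPM with IL-4 to 52.7, 51.6 and 57.3 CPM with PGE2 added, and Etv1 shRNA libraries from 17.5, 16.8 and 19.8 CPM to 43.6, 36.1 and 41.2 CPM. Neither pair of groups overlapped. The log2 changes were 1.20 ± 0.11 (edgeR adjusted p = 1.38e-08) and 1.16 ± 0.11 (edgeR adjusted p = 8.35e-08), and their difference was -0.03 with an interval from -0.35 to 0.28. IL-4 changed Cdkn1b by -0.59 ± 0.11 with the control shRNA (edgeR adjusted p = 0.000276), against -0.16 ± 0.12 with the Etv1 shRNA (edgeR adjusted p = 0.431). The difference of these IL-4 effects, 0.43 ± 0.16, did not pass (edgeR adjusted p = 0.172). Cdkn1b was lower with the Etv1 shRNA, with a log2 difference of -0.81 ± 0.11 without stimulus (edgeR adjusted p = 5.64e-06) and of -0.42 ± 0.10 under IL-4 with PGE2 (edgeR adjusted p = 0.00184), or -0.26 with library totals as the only scaling. Under IL-4 the libraries overlapped, and the difference of -0.39 ± 0.12 (edgeR adjusted p = 0.0107) was lost without replicate 1 of control shRNA with IL-4 (-0.29, adjusted p = 0.0759) or with library totals as the only scaling (-0.26, adjusted p = 0.0725).

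Cdkn2d, which encodes p19, moved in the same directions as Cdkn1b. Cdkn2d (ENSMUSG00000096472, chromosome 9, 21288410 to 21291407, minus strand) was at 20.6, 21.1 and 21.9 CPM without stimulus, 15.6, 18.6 and 18 CPM with IL-4, 25.8, 25.1 and 26.6 CPM with PGE2 added, and 19.6, 21.2 and 22.0 CPM with valinomycin added. The IL-4 libraries were the lowest and the PGE2 libraries the highest, without overlap. IL-4 changed it by -0.29 ± 0.08 (edgeR adjusted p = 0.00703) and PGE2 by 0.57 ± 0.08 (edgeR adjusted p = 2.51e-06). Valinomycin changed it by 0.27 ± 0.08 (edgeR adjusted p = 0.0145), which was lost without replicate 1 of IL-4 (0.20, adjusted p = 0.0814) or replicate 3 of IL-4 with valinomycin (0.24, adjusted p = 0.054). PGE2 exceeded valinomycin by 0.30 ± 0.08 (edgeR adjusted p = 0.00214).

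Of the 4 CDK inhibitors among the members, Cdkn2d had the largest hairpin difference in each of the 3 conditions. Control shRNA libraries held 19.2, 14.6 and 21.2 CPM, then 10.0, 8.47 and 10.6 CPM with IL-4, then 16.6, 20.8 and 18.7 CPM with PGE2 added. Etv1 shRNA libraries held 4.71, 4.10 and 5.47 CPM, then 3.93, 5.80 and 4.00 CPM, then 11, 11.1 and 10.8 CPM. Every Etv1 shRNA library lay below every control shRNA library of its condition. The log2 differences were -1.94 ± 0.16 without stimulus (edgeR adjusted p = 9.09e-09), -1.08 ± 0.18 with IL-4 (edgeR adjusted p = 4.34e-05) and -0.77 ± 0.14 with IL-4 and PGE2 (edgeR adjusted p = 0.000155). PGE2 raised Cdkn2d by 0.94 ± 0.15 with the control shRNA (edgeR adjusted p = 1.74e-05) and by 1.25 ± 0.17 with the Etv1 shRNA (edgeR adjusted p = 6.46e-06). IL-4 changed it by -0.91 ± 0.15 with the control shRNA (edgeR adjusted p = 5.07e-05). Its IL-4 value with the Etv1 shRNA was -0.06, with an interval from -0.44 to 0.33. The difference of the IL-4 effects, 0.86 ± 0.24, was just outside the threshold (edgeR adjusted p = 0.0511). It passed in DESeq2 (0.85, adjusted p = 0.0364), without replicate 3 of unstimulated Etv1 shRNA (0.99, adjusted p = 0.0474), without replicate 2 of unstimulated control shRNA (0.99, adjusted p = 0.013) and with the replicate number as a block within each hairpin (0.86, adjusted p = 0.0227).

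Cdkn2c, which encodes p18, showed no called change with PGE2 in wild type or control shRNA cells. Cdkn2c (ENSMUSG00000028551, chromosome 4, 109660876 to 109667189, minus strand) was at 34.9, 41.1 and 35.1 CPM without stimulus, 33.4, 30.7 and 30.5 CPM with IL-4, 30.6, 29.4 and 28.8 CPM with PGE2 added, and 28.7, 26.4 and 25.8 CPM with valinomycin added. IL-4 changed it by -0.23 ± 0.07 in wild type cells (edgeR adjusted p = 0.0129), which was lost without replicate 2 of the unstimulated (-0.15, adjusted p = 0.12) or replicate 3 of the IL-4 libraries (-0.20, adjusted p = 0.0574). Valinomycin changed it by -0.22 ± 0.08 (edgeR adjusted p = 0.0238), which was lost in DESeq2 (adjusted p = 0.0764) and without replicate 1 of IL-4 or replicate 2 or 3 of IL-4 with valinomycin (-0.19 to -0.18, adjusted p = 0.0994 to 0.111). The PGE2 values were -0.09 (interval -0.24 to 0.06) in wild type and -0.02 (interval -0.23 to 0.20) in control shRNA cells. With the Etv1 shRNA it rose by 0.42 ± 0.11 (edgeR adjusted p = 0.00529), from 9.77 to 11 CPM over the IL-4 libraries to 13.4 to 14.4 CPM. The difference of the PGE2 effects between hairpins, 0.43 ± 0.16, did not pass (edgeR adjusted p = 0.085) but did with the replicate number as a block within each hairpin (0.45, adjusted p = 0.0278). IL-4 changed Cdkn2c by -0.77 ± 0.10 with the control shRNA (edgeR adjusted p = 6.34e-06), and its value with the Etv1 shRNA was -0.26 ± 0.12 (edgeR adjusted p = 0.141). That difference, 0.51 ± 0.16, did not pass (edgeR adjusted p = 0.0746) but did without replicate 2 of unstimulated control shRNA (0.58, adjusted p = 0.0381) and with that block (0.50, adjusted p = 0.0202). Cdkn2c was lower with the Etv1 shRNA, with a log2 difference of -1.01 ± 0.11 without stimulus (edgeR adjusted p = 1.87e-07) and of -0.50 ± 0.11 with IL-4 (edgeR adjusted p = 0.00125).

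Rb1, the gatekeeper that D cyclin kinases inactivate, fell with IL-4 in wild type cells and rose again with either added agent. Rb1 (ENSMUSG00000022105, chromosome 14, 73183673 to 73325822, minus strand) was at 63.4, 69.2 and 66.1 CPM without stimulus and at 46.4, 37.9 and 42.5 CPM with IL-4. It was at 52.5, 52.0 and 53 CPM with PGE2 added and at 49.1, 51.5 and 57.3 CPM with valinomycin added. The IL-4 libraries were the lowest, the unstimulated the highest, and the 2 added agents overlapped between them. IL-4 changed Rb1 by -0.65 ± 0.07 (edgeR adjusted p = 3.68e-08). PGE2 changed it by 0.32 ± 0.07 (edgeR adjusted p = 0.000564) and valinomycin by 0.32 ± 0.07 (edgeR adjusted p = 0.000983), and the interval of the difference between the agents was -0.14 to 0.13. The IL-4 effect was -0.11 in control shRNA cells (interval -0.25 to 0.03) and 0.05 in Etv1 shRNA cells (interval -0.09 to 0.19), and neither was called. PGE2 raised Rb1 by 0.34 ± 0.07 with the Etv1 shRNA (edgeR adjusted p = 0.000555), while its control shRNA value was 0.06 (interval -0.08 to 0.20). The difference of these effects, 0.28 ± 0.10, did not pass (edgeR adjusted p = 0.0792), although it did without replicate 2 of control shRNA with IL-4 and PGE2 (0.32, adjusted p = 0.0489) and with the replicate number as a block within each hairpin (0.27, adjusted p = 0.0457). Under IL-4 with PGE2, Rb1 was 0.32 ± 0.07 higher with the Etv1 shRNA (edgeR adjusted p = 0.000678). Lpar6 and Rcbtb2 overlap Rb1 in the same way, with the same uncertainty as above.

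Myc rose with IL-4 and fell with PGE2 or valinomycin. Myc (ENSMUSG00000022346, chromosome 15, 61985391 to 61990374, plus strand) was at 39.2, 41.5 and 46.9 CPM without stimulus, 103, 87.8 and 99.5 CPM with IL-4, 68.9, 54.9 and 58.5 CPM with PGE2 added, and 56.4, 57.4 and 53.2 CPM with valinomycin added. The IL-4 libraries were the highest and the unstimulated libraries the lowest, and those with PGE2 and valinomycin overlapped between them. IL-4 raised Myc 2.27-fold, by 1.18 ± 0.08 on the log2 scale (edgeR adjusted p = 3.48e-10). PGE2 changed it by -0.67 ± 0.08 (edgeR adjusted p = 5.85e-07) and valinomycin by -0.80 ± 0.08 (edgeR adjusted p = 1.87e-07). The agents differed by 0.13 with an interval from -0.03 to 0.29 (edgeR adjusted p = 0.181), whereas for Ccnd1 they differed by -1.59.

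In shRNA cells IL-4 raised Myc with the control shRNA, and PGE2 lowered it with both hairpins. Control shRNA libraries held 95.5, 78.9 and 88.5 CPM, then 117, 103 and 115 CPM with IL-4, then 78.8, 57.7 and 78.0 CPM with PGE2 added. Etv1 shRNA libraries held 87.1, 89.2 and 84.2 CPM, then 95, 98.1 and 99.9 CPM, then 59.9, 64.9 and 63.2 CPM. With either hairpin the PGE2 libraries were below the IL-4 libraries without overlap. IL-4 raised Myc by 0.35 ± 0.09 with the control shRNA (edgeR adjusted p = 0.00456), and its value with the Etv1 shRNA was 0.17 ± 0.09 (edgeR adjusted p = 0.236, and 0.0201 with the replicate number as a block within each hairpin). PGE2 changed Myc by -0.64 ± 0.09 with the control shRNA (edgeR adjusted p = 6.77e-06) and by -0.64 ± 0.09 with the Etv1 shRNA (edgeR adjusted p = 1.36e-05), and the difference of these effects was 0.00 with an interval from -0.26 to 0.26. No hairpin difference in Myc was called: the values were -0.02, -0.20 and -0.20 (edgeR adjusted p = 0.907, 0.0752 and 0.0811). The second passed without replicate 2 of control shRNA with IL-4 (-0.25, adjusted p = 0.0397), and the third without replicate 2 of control shRNA with IL-4 and PGE2 (-0.33, adjusted p = 0.000836).

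Mycl, the L-MYC gene, was detected almost only in the shRNA experiment, where IL-4 lowered it with both hairpins. Mycl (ENSMUSG00000028654, chromosome 4, 122995652 to 123002485, plus strand) had 6 counts over the 3 unstimulated wild type libraries and 1 count over each of the other wild type groups. The ratio of IL-4 to unstimulated was 0.164 with a counting interval from 0.00356 to 1.35, which covers counting error only. Control shRNA libraries held 96, 44 and 69 counts without stimulus, 3, 2 and 3 with IL-4, and 0, 1 and 6 with IL-4 and PGE2, where a count of 0 allows up to 3. Etv1 shRNA libraries held 64, 80 and 82 counts, then 24 in each IL-4 library, then 6, 11 and 9 with PGE2 added. As levels these were 5.10 ± 1.76, 0.261 ± 0.067 and 0.111 ± 0.108 CPM with the control shRNA and 7.24 ± 1.20, 2.31 ± 0.15 and 0.800 ± 0.307 CPM with the Etv1 shRNA. Unstimulated libraries overlapped between hairpins, and under IL-4 every Etv1 shRNA library was above every control shRNA library.

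IL-4 changed Mycl by -4.24 ± 0.39 on the log2 scale with the control shRNA (edgeR adjusted p = 4.7e-08) and by -1.63 ± 0.25 with the Etv1 shRNA (edgeR adjusted p = 9.49e-05). The difference of these effects was 2.61 ± 0.53 (edgeR adjusted p = 0.00568), and it was called in all 12 fits without 1 library (2.36 to 2.81). The hairpin difference was 0.51 ± 0.22 without stimulus, which was not called (edgeR adjusted p = 0.0616) but passed without replicate 3 of the control shRNA (0.76, adjusted p = 0.00895). It was 3.12 ± 0.46 with IL-4 (edgeR adjusted p = 1.23e-05) and 2.26 ± 0.57 with IL-4 and PGE2 (edgeR adjusted p = 0.00231). The last was 3.48 without replicate 3 of control shRNA with IL-4 and PGE2, which held 6 of the 7 counts of its group. PGE2 changed Mycl further with the Etv1 shRNA, by -1.54 ± 0.36 (edgeR adjusted p = 0.00139). With the control shRNA, at 8 against 7 counts, no PGE2 change was detectable at this depth. The log2 values of the control shRNA groups with 7 and 8 counts rest on few reads and depend on the prior count of the fit.

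**Figure D3:**
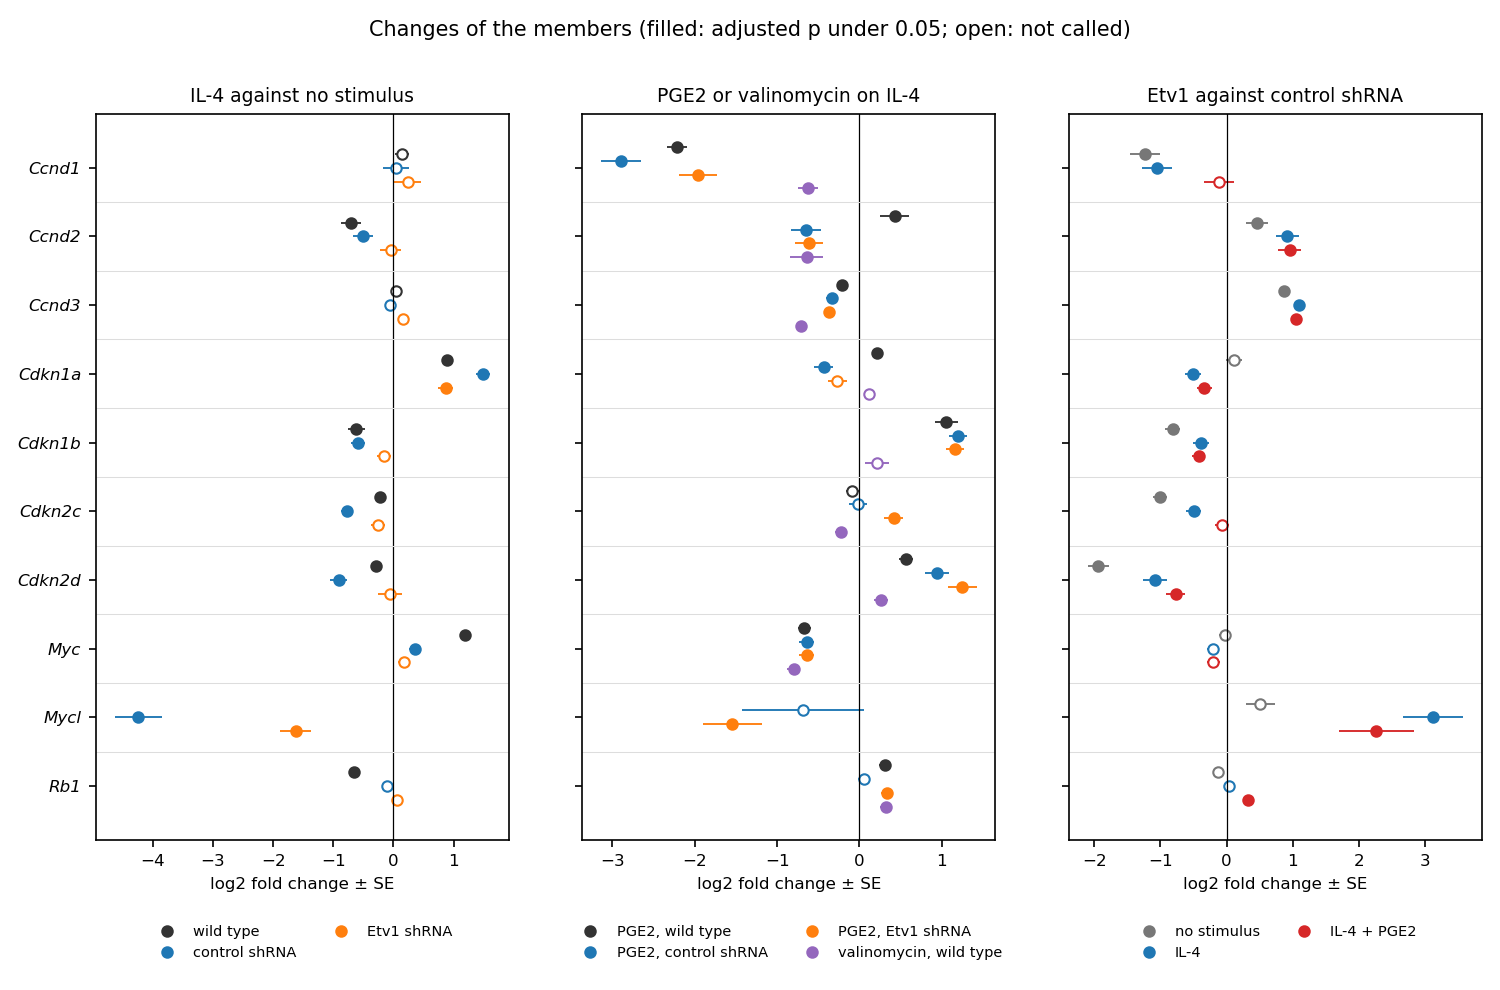
Log2 fold changes (x axis, ± SE) of the 10 genes (y axis) for IL-4, for PGE2 or valinomycin against IL-4 alone, and for the Etv1 against the control shRNA, filled where the adjusted p was under 0.05 and open where not. PGE2 lowers Ccnd1 and Myc and raises Cdkn1b and Cdkn2d in all 3 cell sets, while Cdkn1a is moved up in wild type cells and down in control shRNA cells.

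For 5 of the 9 members tested in both experiments the PGE2 call and its direction were alike in all 3 cell sets, which share no libraries: Ccnd1, Ccnd3 and Myc fell, and Cdkn1b and Cdkn2d rose. Of the 11906 genes tested in both, 33.5% were called alike, 16.7% as higher and 16.8% as lower. Across the hairpins none of the 10 PGE2 effects differed at the adjusted threshold in the edgeR fit without a block. There 11.6% of all genes did, 6.03% higher and 5.58% lower. At an unadjusted edgeR p under 0.05 there were 3, Ccnd1, Cdkn2c and Rb1, but the share of all genes at that threshold was not counted. DESeq2 called 1 member, Ccnd1, among 1400 genes. With the replicate number as a block within each hairpin, Ccnd1, Cdkn2c and Rb1 were called as higher. That block called 1376 of all 12382 genes as higher and 1187 as lower, 2563 in all.

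The genes around the members were read from 8 lists, by the same fits. The MYC target list, genes of ribosome assembly and nucleotide and polyamine synthesis, moved with Myc under IL-4 and under PGE2. In wild type cells IL-4 raised 17 of 20 and lowered 0 (median 0.47, against 0.01 over all genes), and PGE2 lowered 18 and raised 2 (median -1.23, against 0.01). Of all genes IL-4 raised 24% and lowered 22.4%, and PGE2 lowered 29.5% and raised 29.9%. Ncl, the nucleolar protein nucleolin, changed by 0.50 ± 0.05 with IL-4 and -1.0 ± 0.05 with PGE2, and Nop56, a part of the small nucleolar RNA particle, by 0.46 ± 0.06 and -1.38 ± 0.07. Hspd1, a mitochondrial chaperonin, changed by 0.56 ± 0.07 and -1.43 ± 0.07. The 2 that rose with PGE2 were Odc1, the first enzyme of polyamine synthesis (1.49 ± 0.07), and Ldha, lactate dehydrogenase (0.53 ± 0.11), which were named after their values were seen. Valinomycin lowered 7 and raised 2 of the 20 (median -0.11), where 18.9% of all genes fell and 19.4% rose. Its value for Myc itself was -0.80. Cad, an enzyme of pyrimidine synthesis, fell by 0.80 on the log2 scale with valinomycin and Gnl3, nucleostemin, rose by 0.64. Between the agents 18 of 20 were lower and 2 higher with PGE2 (median -0.99), where 31.5% of all genes were lower and 31.7% higher.

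In shRNA cells PGE2 again lowered 18 and raised 2 of the 20 MYC targets, with medians of -1.13 in control and -1.10 in Etv1 shRNA cells. Over all genes 30.1% fell and 29.3% rose in control, and 22.8% and 24.6% in Etv1 shRNA cells. IL-4 raised 8 and lowered 1 with the control shRNA (median 0.20), where 17.2% of all genes rose and 17.1% fell. It raised 0 and lowered 1 with the Etv1 shRNA (median 0.03), where 10.9% rose and 7.16% fell. With the replicate number as a block within each hairpin these counts were 12 and 2, and 4 and 2. Among all 12382 genes that block called 2615 higher and 2632 lower with the control shRNA, and 1786 and 1368 with the Etv1 shRNA. Without stimulus 11 of the 20 were higher and 2 lower with the Etv1 shRNA (median 0.28), where 24.9% of all genes were higher and 26.8% lower.

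The E2F target list, the replication licensing and nucleotide genes that E2F factors switch on for S phase, fell with IL-4 and fell again with PGE2. In wild type cells IL-4 lowered 16 of 16 (median -0.46) and PGE2 lowered 16 of 16 (median -1.12), while valinomycin lowered 11 and raised 1 (median -0.36). Of all genes 22.4%, 29.5% and 18.9% fell in the same order. Mcm6, a subunit of the replicative helicase, changed by -0.57 ± 0.06 with IL-4, -2.27 ± 0.07 with PGE2 and -0.37 ± 0.06 with valinomycin. Pcna, the sliding clamp of DNA polymerase, changed by -0.59 ± 0.05, -1.20 ± 0.05 and -0.24 ± 0.05 in the same order. The 1 that rose with valinomycin was the licensing factor Cdt1 (0.69 ± 0.07). In shRNA cells IL-4 lowered 14 of 16 with the control (median -0.65) and 15 of 16 with the Etv1 shRNA (median -0.64). PGE2 lowered 9 (median -0.46) and 12 (median -0.40). The shares of all genes that fell were 17.1% and 7.16% with IL-4, and 30.1% and 22.8% with PGE2. None of the 16 rose in those 4 comparisons. Under IL-4 Myc and its targets thus rose in wild type cells while these genes fell.

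The counts on the next lists are to be read against the shares of all genes called in wild type cells, 24% higher and 22.4% lower with IL-4, 29.9% and 29.5% with PGE2, and 19.4% and 18.9% with valinomycin. The partners of the D cyclins moved as follows. Cdk4, their kinase, changed by 0.16 ± 0.05 with IL-4, -0.94 ± 0.06 with PGE2 and -0.19 ± 0.05 with valinomycin in wild type cells. Of the 9 tested kinase and cyclin E and A genes, IL-4 raised 2 and lowered 5, PGE2 lowered 5 and raised 0, and valinomycin raised 1 and lowered 4. Cyclin E2 (Ccne2) changed by -0.93 ± 0.13 with IL-4 and -1.12 ± 0.16 with PGE2, and cyclin A2 (Ccna2) by -0.29 ± 0.07 and -0.60 ± 0.07. Among 12 RB and E2F genes, IL-4 raised 2 and lowered 6, PGE2 raised 2 and lowered 7, and valinomycin raised 1 and lowered 4. Rbl2, the p130 relative of Rb1 known from resting cells, rose by 0.56 ± 0.05 with PGE2, while its relative p107 (Rbl1) changed by -0.70 ± 0.08 and the E2F partner Tfdp1 by -0.85 ± 0.07. In control shRNA cells PGE2 changed Rbl2 by 0.43 ± 0.06 and Tfdp1 by -0.54 ± 0.07. On the kinase and cyclin list PGE2 raised 1 and lowered 5 with the control shRNA (median -0.39). With the Etv1 shRNA it raised 2 and lowered 3 (median -0.04). On the RB and E2F list these counts were 1 and 7, and 3 and 5. Over all genes 29.3% rose and 30.1% fell with the control shRNA, and 24.6% and 22.8% with the Etv1 shRNA. Of the 4 other CDK inhibitors, IL-4 lowered 1, PGE2 lowered 2 and valinomycin raised 1 in wild type cells, with no other calls. The 2 that PGE2 lowered were Cdkn3 and p57 (Cdkn1c). In control shRNA cells PGE2 lowered 1 and in Etv1 shRNA cells 0, and it raised 0 in either. In wild type cells Cdkn1c changed by -0.76 ± 0.13 with IL-4, -0.55 ± 0.15 with PGE2 and 0.63 ± 0.13 with valinomycin. Cdkn2a and Cdkn2b were at 0.84 to 2.23 CPM over the wild type libraries and were not called in these 3 comparisons.

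**Figure D4:**
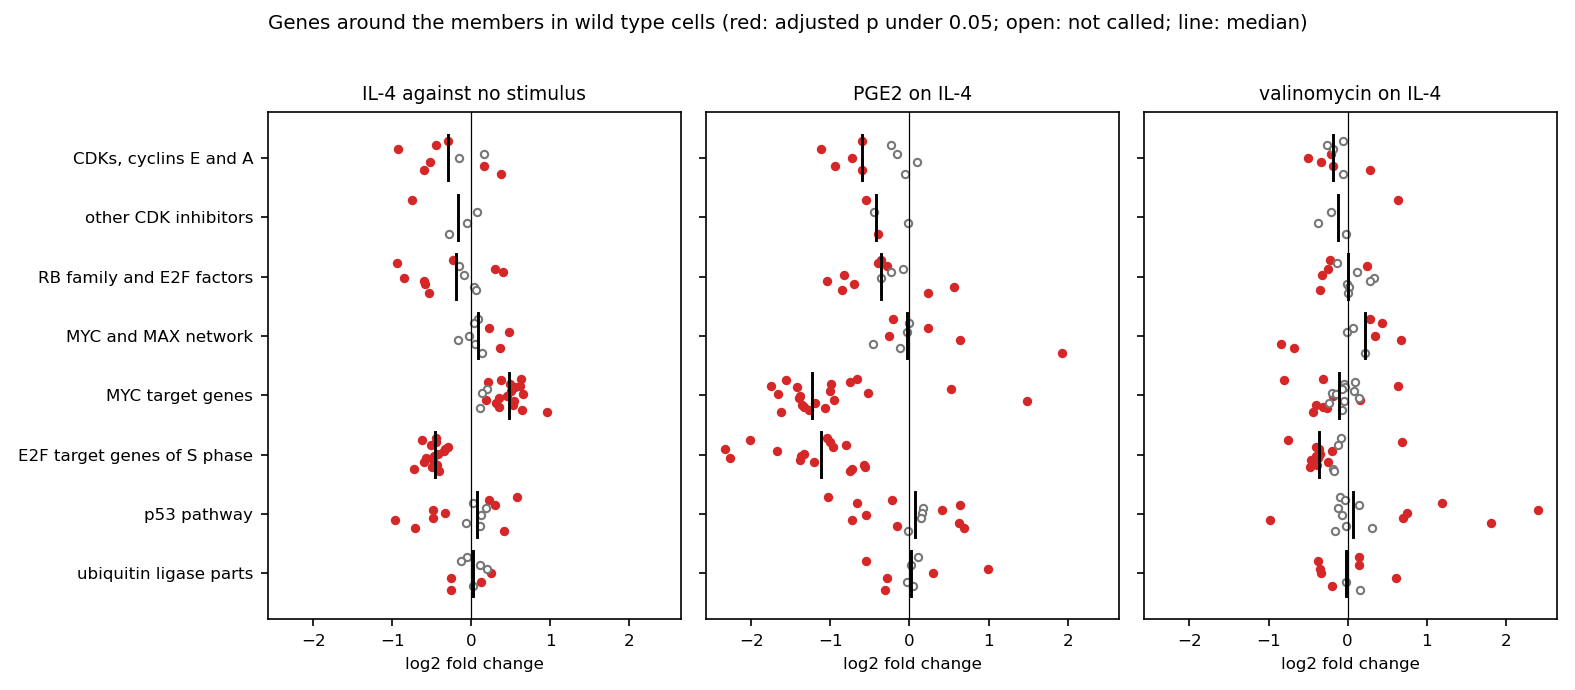
Log2 fold changes (x axis) of the genes on 8 lists around the members (y axis) in the 3 wild type comparisons, with a dot per gene, red where the adjusted p was under 0.05 and open where not, and a line at each list's median. PGE2 lowers 18 of 20 MYC targets and 16 of 16 E2F targets, and valinomycin 7 and 11, where PGE2 lowers 29.5% and valinomycin 18.9% of all genes.

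In the MYC and MAX network the antagonists of MYC that PGE2 raised included Mxi1 and Mxd1. Mnt, another antagonist, was also among the 3 genes with the smallest adjusted p for PGE2 on this list. It and the other antagonists enter only the counts below, so no rise of MYC antagonists as a set is shown. Mxi1 and Mxd1, which compete with MYC for MAX, changed by 1.93 ± 0.18 and 0.64 ± 0.09 with PGE2 in wild type cells, by 4.00 ± 0.13 and 1.62 ± 0.11 in control shRNA cells and by 3.19 ± 0.13 and 1.37 ± 0.14 in Etv1 shRNA cells. In all, PGE2 raised 3 and lowered 2 of 9 in wild type cells (median -0.03, against 0.01 over all genes). It raised 2 and lowered 2 with the control shRNA, where 29.3% of all genes rose and 30.1% fell. With the Etv1 shRNA it raised 3 and lowered 1, where 24.6% rose and 22.8% fell. Max itself, the partner of both sides, changed by -0.20 ± 0.05 in wild type cells. Valinomycin raised 4 and lowered 2 of 9. Mxd1 was among those it raised (0.68 ± 0.09), the value for Mxi1 was 0.21 ± 0.19 and not called, and Mxd4 changed by -0.68 ± 0.05. IL-4 raised 3 and lowered 0.

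The p53 pathway, whose best known target is Cdkn1a, was called in both directions in wild type cells, as were all genes. IL-4 raised 4 and lowered 5 of 14 (24% and 22.4% of all genes), PGE2 raised 4 and lowered 6 (29.9% and 29.5%), and valinomycin raised 5 and lowered 1 (19.4% and 18.9%). Among the genes raised by valinomycin was Bbc3, a mediator of cell death (1.19 ± 0.09), and the 1 it lowered was Sesn1 (-0.98 ± 0.06), which IL-4 and PGE2 also lowered (-0.96 ± 0.05 and -0.73 ± 0.06). Gadd45a and Sesn2, growth arrest and stress genes named after their values were seen, changed by 2.41 ± 0.12 and 1.81 ± 0.11 with valinomycin. The median of the list with valinomycin was 0.06, against -0.03 over all genes. Aen and Btg2, which were among the genes of this list with the smallest adjusted p for PGE2, enter only the counts. In control shRNA cells IL-4 raised 10 and lowered 3 of 15 (median 0.71), where 17.2% of all genes rose and 17.1% fell, and in Etv1 shRNA cells 8 and 3 (median 0.31), where 10.9% rose and 7.16% fell. Of the ubiquitin ligase parts that remove cyclins, p27 and MYC, IL-4 raised 2 and lowered 2 of 9, PGE2 raised 2 and lowered 3, and valinomycin raised 3 and lowered 4. The IL-4 and PGE2 counts were near the 46.4% and 59.4% called over all genes, and for valinomycin that share was 38.4%. Skp2 and Cks1b, which target p27, changed by -0.31 ± 0.09 and -0.55 ± 0.09 with PGE2. Fbxo31, a receptor for cyclin D1, changed by 0.99 ± 0.08 with PGE2 in wild type, by 2.40 ± 0.11 with the control and 1.42 ± 0.12 with the Etv1 hairpin, and by -0.36 ± 0.09 with valinomycin. Fbxw7, a receptor for cyclin E and MYC, changed by -0.28 ± 0.09 with PGE2 and by 0.61 ± 0.08 with valinomycin.

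The genes whose pattern was nearest to a member were found among 10238 genes, as the smallest root mean square difference of centred log2 group means over the 10 groups. For Ccnd1, whose range was 3.0 on the log2 scale, they were AU020206 (0.20) and Chst3 (0.29). For Ccnd2 they were Ajuba (0.20) and Tspan33 (0.21), and for Ccnd3 Adgra3 (0.12) and Crtap (0.13). Cdkn1a was nearest to Dip2b (0.17) and Arhgap31 (0.18), Cdkn1b to Gpd2 (0.14) and Micall2 (0.15), Cdkn2c to Msra (0.14) and Ctsh (0.14), and Cdkn2d to Ypel3 (0.21) and Fli1 (0.23). Myc was nearest to Psmg1 (0.15) and BC017158 (0.16). No member was among the nearest genes of another member. Rb1, with a range of 0.65, and Mycl, which was tested in 1 experiment only, were not matched.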

How the data were processed

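RNA of 30 macrophage libraries was sequenced. The values are gene counts as the authors deposited them, without normalization, in a file per library. STAR, featureCounts and the GRCm38 build are named in the submitters' processing notes, as are DESeq2 and deepTools, from which nothing was taken. Versions and the strand setting of the counting are not given in the sources used here. Symbols, coordinates and exon lengths came from GENCODE M21, which matched 42548 of 43629 identifiers (97.52%). The wild type (12 libraries, 12824 genes tested) and shRNA (18 libraries, 12382 genes tested) experiments were fitted apart with edgeR 4.0.16 in R 4.3.3: TMM scaling, filterByExpr, robust quasi-likelihood fit with 1 mean per group, 13 contrasts, and Benjamini-Hochberg adjustment over all tested genes. The standard error of a log2 fold change was its size over the square root of F, and intervals are 1.96 standard errors either way. Replicates differed by more than sampling noise (lowest chi-square per degree of freedom 1.246). Deviations from group means of same-numbered libraries correlated at 0.11 to 0.49 in the comparisons within a hairpin, over 0.1 in every pair. There the numbers, which come from the labels, were taken to pair libraries. Pairs in wild type cells and between hairpins did not all reach that value. The main fit had no block, so the p-values within a hairpin ignore that pairing except where a replicate block is named. The edgeR script was tested on simulated counts.

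Named genes were the members and Etv1, from each of 8 lists up to 3 genes with the smallest adjusted p for PGE2 and up to 2 each for IL-4 and valinomycin in wild type cells, and the 2 genes nearest to each member. Those were taken among genes with at least 5 CPM in some group, with a pseudocount of 0.5 CPM, for members ranging by 1 or more. Not every gene picked by this rule is given with its value: Aen, Btg2, Cdkn3, E2f6 and Mnt are among those that are not. Other genes given with values (Odc1, Ldha, Gadd45a, Sesn2 and Max) were chosen after their values were seen. The members and lists were chosen with earlier results of these data known. The CCAAT and p53 motifs were added after the windows had been read. Alternatives were other scaling, no filter, DESeq2 1.42.0, a replicate block, a block within each hairpin (added after the data were seen), fits of single contrasts and 30 fits without 1 library.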

Additional observations from a re-analysis of the deposited data

Results flagged for a closer look

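The IL-4 effects of the 2 hairpins differed by the test of the difference itself for 2 of the 10 members, 1 higher and 1 lower, where 4.51% of all genes were called, 2.71% higher and 1.81% lower. For Cdkn1a the IL-4 effect was smaller with the Etv1 than with the control shRNA by a log2 difference of -0.62 (edgeR adjusted p = 0.0454), and with either hairpin all 3 IL-4 libraries lay above all unstimulated ones. That call was lost in 11 of 12 fits without 1 library (adjusted p = 0.0589 to 0.123), with library totals as the only scaling (adjusted p = 0.0503), without the filter on low counts (adjusted p = 0.155) and with only the groups of the contrast in the fit (adjusted p = 0.069). It held with the replicate number as a block within each hairpin (-0.60). The fall of Mycl with IL-4 was smaller with the Etv1 shRNA by 2.61 (edgeR adjusted p = 0.00568), at 72 against 8 counts over the IL-4 libraries. The summed macrophage markers of the Etv1 shRNA libraries were at 8902 to 10386 CPM against 15895 to 21465 CPM in control shRNA libraries, and the part of that difference in these values was not tested.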

How the results depend on the processing

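Of 126 member results, 75 were called, and 64 of these kept their call and direction under every alternative run; 11 lost it under at least 1, and 16 of the 51 uncalled results gained a call under at least 1. No called member value changed direction. The values beside each gene in the report name the libraries that decide a call. Without the filter on low counts, 6 calls were lost, of Ccnd2 in 3 comparisons, Cdkn1a in 2 and Cdkn2c in 1 (adjusted p = 0.063 to 0.155). For the difference of the IL-4 effects between hairpins, 2 members and 559 genes were called. With library totals as the only scaling, or with only the groups of the contrast in the fit, 1 member was called, and without 1 library 1 to 3 members and 360 to 762 genes. For the difference of the PGE2 effects, 0 members were called, against 1 in DESeq2 and 0 to 1 without 1 library. Valinomycin changed 7 members, and 4 to 9 without 1 library (4 without replicate 3 of IL-4 with valinomycin). The cause of these shifts was not tested. Library totals as the only scaling moved the median of all genes between hairpins from -0.012 to 0.118 without stimulus. With IL-4 that median went from -0.004 to 0.123, and with IL-4 and PGE2 from -0.001 to 0.157. In the same order the share of calls that were higher went from 48.1% to 65.9%, from 49.8% to 66.6% and from 50.8% to 69.5%. For IL-4 in Etv1 shRNA cells that share went from 60.3% to 49.3%. Under that scaling Rbl2 in Etv1 against control shRNA with IL-4 and PGE2 was called at 0.16, opposite to its uncalled value.

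With 1 replicate block across all groups, 984 of 12382 genes and 4 members were called for the difference of the IL-4 effects. For that of the PGE2 effects, 1997 genes and 1 member, Ccnd1 (0.96, edgeR adjusted p = 0.00237), were called. With a block within each hairpin, chosen after seeing the data, 1413 of 12382 genes and 5 members were called for the former. For the latter it called 2563 genes (against 1438) and 3 members, and for IL-4 in Etv1 shRNA cells 3154 genes and 5 members. The block within each hairpin lost no call of a member, and the 10 it added are given in the report. In wild type cells and between hairpins the numbers were not taken to pair libraries, as not all same-numbered pairs correlated over 0.1. In wild type cells the correlations were -0.07 to 0.02 for IL-4 and 0.05 to 0.17 for PGE2. They were 0.08 to 0.12 for valinomycin and 0.09 to 0.20 between the agents, and -0.02 to 0.25 between hairpins. Whether same-numbered libraries shared more than a number in these comparisons was not tested. The single block there added calls of Cdkn1a with valinomycin (adjusted p = 0.0341) and between the agents (adjusted p = 0.0448), and between hairpins of Mycl without stimulus (adjusted p = 0.0314) and Myc with IL-4 (adjusted p = 0.0474). At a median of 10303938 counts per shRNA library, genes with few counts, such as Mycl with 7 and 8 counts under IL-4 in control shRNA cells, limit what can be told.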
